A study of Mus musculus with 12 samples.

Results

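The genes of the cytosolic ribosomal proteins were followed in mouse bone marrow-derived macrophages that differed in Kif13b genotype and in contact with apoptotic cells. They were taken by gene symbol, as the rows named Rpl, Rps or Rplp followed by a number and at most the letter a, l or x, with pseudogene symbols ending in -ps left out. The rule found 82 genes of the 54957 symbols measured without and the 55367 symbols measured with apoptotic cells, 51 of the large and 31 of the small subunit. GENCODE annotates 79 of them as protein coding and 3, Rpl32l, Rpl6l and Rps4l, as pseudogenes. Rpsa, Rps3a1, Fau and Rack1 also encode ribosomal proteins but fall outside the symbol rule and were counted apart. The cells were grown from the tibial marrow of 6 to 8 week old mice, and polyA RNA was sequenced in 12 libraries, 3 in each of 4 groups. KO + AC and WT + AC macrophages were Kif13b-deficient and wild type cells kept for 90 min with apoptotic cells, made from the human T-cell leukaemia line Jurkat, at 1 macrophage to 5 apoptotic cells. KO and WT macrophages were the same genotypes without apoptotic cells. The deficient genotype is written in the labels both as Kif13b-/- and as a knock down. The labelled serum content, 12, 13 and 14% for the KO and 10, 10 and 11% for the WT libraries, rises by library and is in doubt. No label says whether libraries of a group came from separate mice, so the p-values cover the variation among libraries and perhaps no more.

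The ribosome translates mRNA with a small subunit that reads the codons and a large subunit that joins the amino acids. Each subunit holds ribosomal RNA and many small proteins, and the protein genes are among the most strongly transcribed genes of most cells. Their mRNAs begin with a run of pyrimidines, the TOP tract, through which mTORC1 and the RNA-binding protein LARP1 govern their translation and stability.

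Total counts were 17160248 to 17285594 in KO + AC, 17000976 to 17256902 in WT + AC, 18351051 to 18770757 in KO and 18256622 to 18461359 in WT libraries. Counts were spread over 31787 to 32801 symbols with apoptotic cells, against 18335 to 18540 without. The 2 conditions stand in 2 tables, so apoptotic cells, table and any difference in handling cannot be told apart. Kif13b had 1697, 1697 and 1721 counts in KO + AC against 1600, 1561 and 1634 in WT + AC libraries, and 281, 345 and 424 in KO against 599, 546 and 535 in WT libraries. The first set goes against its label, so KO and KO + AC below mean the libraries so labelled. Macrophage markers summed to 14295 to 16550 counts per 1e6 (CPM) with and to 26454 to 30799 CPM without apoptotic cells, and none of the 8 was at 0. The sum is mostly Lyz2 and Cd68, which with Fcgr1 were lower in every library with apoptotic cells, whereas Csf1r, Adgre1 and Itgam were higher in every one. Csf1r stood at 904 to 1034 CPM with and 406 to 555 CPM without them. The 10 T cell markers summed to 73.3 to 81.5 CPM in KO + AC, 82.9 to 95.5 in WT + AC, 54.3 to 57.2 in KO and 47.9 to 49.2 in WT libraries. The 10 did not move together. Lck had 375 to 569 counts with and 10 to 21 without apoptotic cells, and Zap70 had 360 to 476 against 0 to 4. Cd3e had 58 to 91 counts with and 0 to 1 without, Cd3g 18 to 33 against 0 to 4, and Cd7 3 to 8 against 0 to 1. Lat went the other way with 267 to 353 with and 460 to 834 without, as did Cd28 with 66 to 105 against 167 to 398. Cd2, Cd3d and Cd5 overlapped between the conditions. Cd3d and Cd7 were at 0 in every WT library. Symbol counts do not show whether a read came from the mouse or the human cells.

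Ribosomal protein genes took 2.08, 2.06 and 2.16% of all counts in KO + AC and 2.17, 2.26 and 2.21% in WT + AC libraries. Without apoptotic cells they took 7.33, 7.70 and 5.99% in KO and 5.75, 5.97 and 5.84% in WT libraries. Every library with apoptotic cells lay below every library without them, and KO 1 and KO 2 lay above the other 4 libraries without them. The mean shares were 2.10 ± 0.0552% in KO + AC, 2.21 ± 0.0435% in WT + AC, 7.005 ± 0.902% in KO and 5.85 ± 0.110% in WT macrophages (SD, n = 3 each). The large subunit held 1.26% of counts in KO + AC and 4.22% in KO libraries on average, and the small subunit held 0.836% and 2.79%. In bulk RNA, fewer macrophages and less of these mRNAs per macrophage cannot be told apart.

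**Figure D1:**
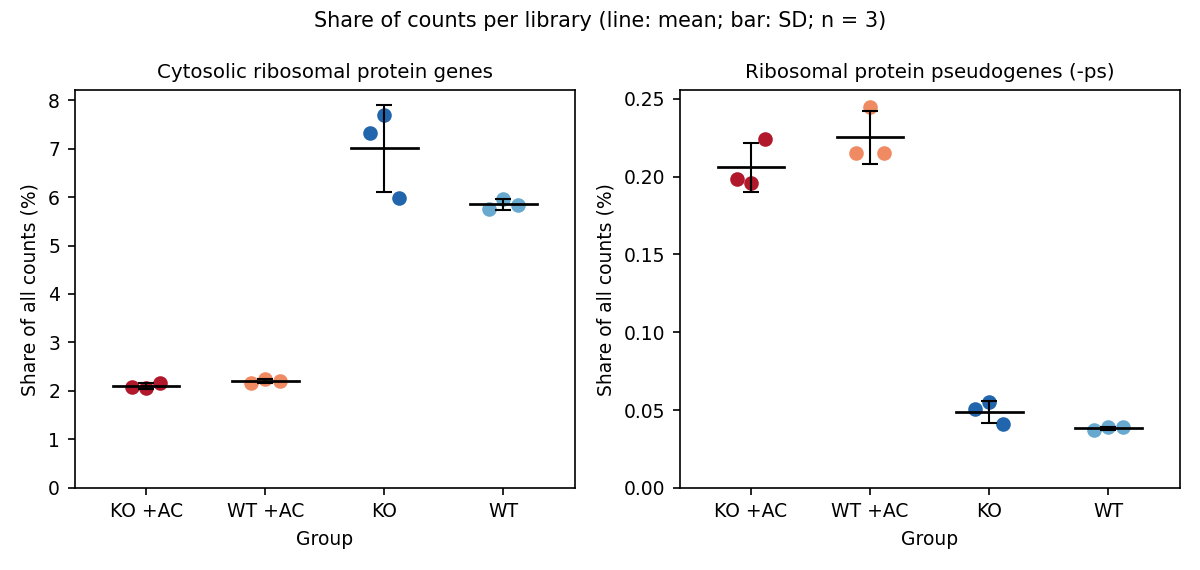
Share of all counts (%) on the 82 ribosomal protein genes (left) and on the ribosomal protein pseudogenes ending in -ps (right) in KO + AC, WT + AC, KO and WT macrophages. Points are libraries, lines are means and bars are SDs of 3 libraries. The genes took about 2% of counts with apoptotic cells and 5.75 to 7.70% without, while the pseudogene share was higher with apoptotic cells.

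Per kilobase of transcript and 1e6 counts, Rplp1, which encodes a mobile protein of the ribosomal stalk, was the highest of the genes without apoptotic cells. Its level was 4483 ± 1111 in KO and 3072 ± 110 in WT macrophages (SD, n = 3 each). Rps15, a protein of the decoding site, followed in WT at 2104 ± 23.0, and Rpl41, the smallest ribosomal protein, at 2021 ± 89.4, a gap within their spread. With apoptotic cells Rpl10, a large subunit protein near the peptidyl transferase centre, ranked first at 917 ± 9.31 in KO + AC and 903 ± 11.5 in WT + AC. Rplp1 then ranked second, at 767 ± 18.3 and 837 ± 21.9. Rpl4, which lines the exit tunnel, stood at rank 48 in KO and 40 in WT but at rank 10 in KO + AC and 11 in WT + AC. By raw counts the leading genes were Rps2, Rplp1 and Rplp0 in the table without and Rpl4, Rpl10 and Rplp0 in the table with apoptotic cells.

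At the other end, Rpl3l, the striated muscle form of Rpl3, had 0 to 4 counts with and 2 to 7 counts without apoptotic cells and did not pass the filter on low counts in any comparison. Rpl10l and Rpl24 passed the filter on low counts only in fits that included the libraries with apoptotic cells. Of the rest, 71 genes had at least 1000 counts in every library without apoptotic cells, and 69 did with them. Near-identical copies can draw or lose reads of this family. In 72 of the 82 genes at least 1 stretch of 100 bases of the principal transcript also occurred in another gene, and in 28 genes most such stretches did. For the 2 low coding genes Rpl24 and Rps10, 80.1% and 47.7% of the stretches occurred elsewhere. They also share 47.0% and 28.7% of their exonic bases with neighbours, among them Gm28037 and RPS10-NUDT3 on the same strand. Their counts are uncertain on both grounds. Shared stretches alone do not set them apart, since Rps27 had 98.4% and at least 2817 counts in every library. Rpl13a, Rpl23a and Rpl35 also share exonic bases with neighbouring genes, over 35.4%, 62.3% and 66.2% of their length.

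The co-culture asks how macrophages respond while they take up dying cells. With apoptotic cells, 75 of 81 tested ribosomal protein genes were lower and 6 were higher in both genotypes (edgeR quasi-likelihood test, Benjamini-Hochberg adjusted p under 0.05). Among all genes tested, 86.3% were called in KO + AC against KO, 36.7% lower and 49.6% higher, and 85.0% in WT + AC against WT, 36.7% lower and 48.3% higher. The median log2 fold change of the genes was -2.17 in KO and -1.82 in WT macrophages, against 0.32 and 0.25 over all genes. Groups did not overlap for any of the 81 genes in either genotype, against 86.7% and 86.6% of all genes tested. The same 75 genes fell in both genotypes, with median log2 changes of -2.22 in KO and -1.87 in WT. With scaling by library totals the medians were -1.72 in KO and -1.41 in WT, against 0.76 and 0.66 over all genes. Relative to all genes the median was -2.49 under the main scaling and -2.48 under totals in KO, and -2.07 under both in WT. The macrophage marker sum was also lower with apoptotic cells, though 3 of its 8 genes were higher, and the part of these markers in the falls was not tested.

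Across the 75 genes that fell, the log2 changes of the genotypes had a Pearson correlation of 0.879, a description over genes that are not independent replicates. The libraries are disjoint, but both contrasts share the split into tables and 1 fit. The median change over all genes differed with gene length. In the eighth of all genes with the shortest exons it was 4.31 in KO and 4.51 in WT. The 14 ribosomal genes there had medians of -2.12 and -1.55. The fit of 12 libraries tested 16810 genes, against 12640 in the libraries without apoptotic cells. Genes low without apoptotic cells could pass its filter through the libraries with them, which can raise such a median. In the next shortest eighth the medians were -0.29 and -0.22 over all genes, against -2.22 and -1.88 for its 32 ribosomal genes. In the eighth after it they were -0.65 and -0.57, against -2.15 and -1.80 for 20. The longest eighth had 0.98 and 0.74.

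**Figure D2:**
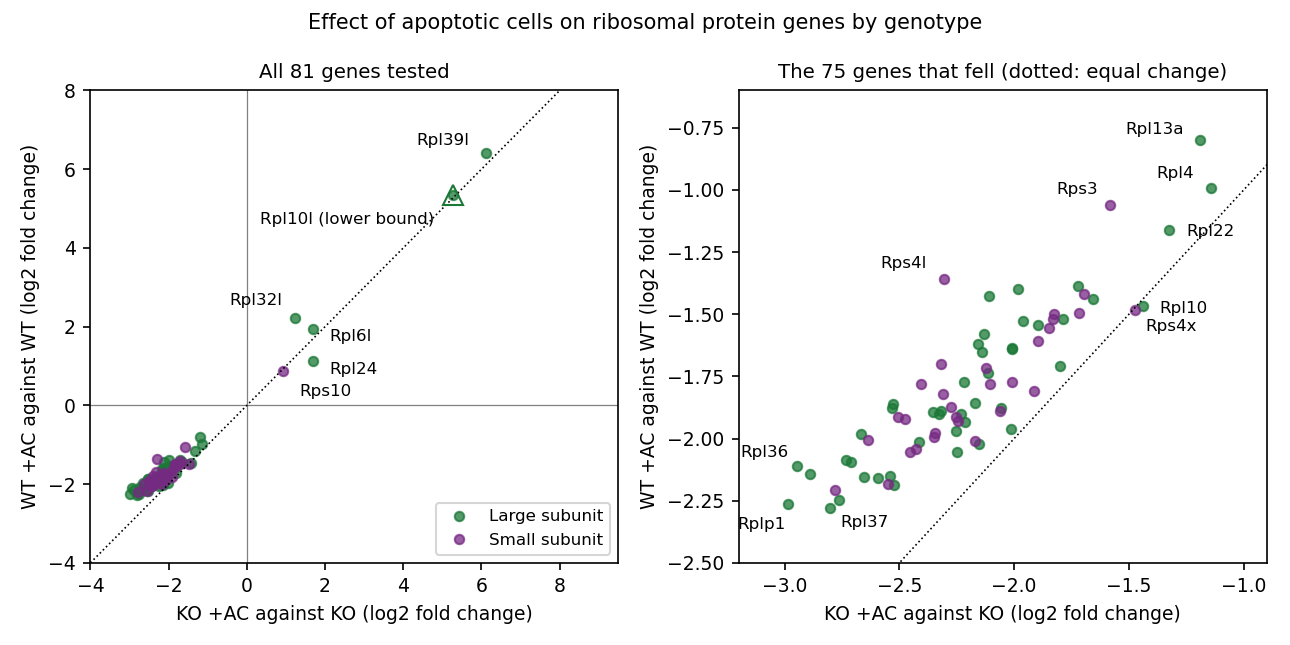
Log2 fold change with apoptotic cells in KO (horizontal axis) and in WT macrophages (vertical axis) for 81 genes (left) and the 75 that fell (right), coloured by subunit. Rpl10l is drawn at the lower bound of its change. Most genes that fell lie above the dotted line of equal change, with Rplp1, Rpl36 and Rpl37 at the low end and Rpl4 and Rpl13a at the high end.

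The ribosomal stalk recruits the elongation factors that drive translation. Its 3 genes fell in both genotypes, with medians of -2.71 in KO and -2.09 in WT. Rplp1 had 6626, 6447 and 6720 counts in KO + AC against 42645, 51213 and 30569 in KO libraries. In WT + AC it had 6882, 7195 and 7323 counts against 28095, 29068 and 27218 in WT libraries. This was the largest fall among the genes in KO, with a log2 change of -2.99 (SE 0.15, adjusted p 1.17e-13), and the second in WT, at -2.26 (SE 0.14, adjusted p 8.64e-12). Its partner Rplp2 changed by -2.71 and -2.09, and Rplp0, which anchors both to the large subunit, by -2.01 and -1.63. The SEs rest on a spread pooled over all 12 libraries, although Rplp1 varied more among KO than among WT libraries.

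The 5S particle carries Rpl5 and Rpl11, which with 5S RNA bind and inhibit MDM2 when ribosome assembly fails. Rpl11 had 4635, 4429 and 4983 counts in KO + AC against 17153, 19765 and 12841 in KO, and 4728, 5294 and 4915 in WT + AC against 12977, 12731 and 12016 in WT libraries. Rpl5 and Rpl11 changed by -1.80 and -2.16 in KO and by -1.71 and -1.62 in WT, all falls.

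Of the proteins at the peptidyl transferase centre, where peptide bonds form, all 3 fell less than the median gene. Rpl10 had 13511, 13438 and 13615 counts in KO + AC against 32102, 27351 and 28365 in KO libraries. In WT + AC it had 12950, 13127 and 13483 counts against 26043, 31154 and 32607 in WT. Its changes were -1.44 (SE 0.10) in KO and -1.47 (SE 0.10) in WT. Rpl3 changed by -1.79 and -1.52, and Rpl8 by -1.90 and -1.54.

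The exit tunnel, through which the new chain leaves, held the weakest and some of the strong falls. Rpl4, in the tunnel wall, had 14246, 14576 and 14468 counts in KO + AC against 27131, 24067 and 25280 in KO libraries. In WT + AC it had 14309, 15240 and 15008 against 25040, 24104 and 23707 in WT. Its changes, -1.14 (SE 0.08) in KO and -0.99 (SE 0.08) in WT, were the smallest in KO and the second smallest in WT. Rpl39, a short protein deep in the same tunnel, changed by -2.73 in KO and -2.08 in WT. At the tunnel rim, Rpl26 and Rpl31 changed by -2.54 and -2.59 in KO and by -2.15 and -2.16 in WT, and Rpl19 by -2.53 and -1.88.

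In the small subunit, the 6 genes of the decoding centre and mRNA channel all fell, with medians of -2.34 in KO and -1.92 in WT. Rps15 had 4906, 4735 and 4920 counts in KO + AC against 26647, 32069 and 20739 in KO, and 5199, 5104 and 4968 in WT + AC against 19193, 19259 and 19474 in WT libraries. It changed by -2.78 (SE 0.12) and -2.21 (SE 0.12), the largest falls of the small subunit in each genotype. Rps3, which sits at the mRNA entry and has helicase activity, fell least of the 6, at -1.58 in KO and -1.06 in WT. Rps2, its neighbour at the entry, changed by -2.48 and -1.92. Rps6, the target of S6 kinase, changed by -2.06 and -1.89, and Rps27a, made as a fusion with ubiquitin, by -2.24 and -1.93. Rps20 and Rps10 are ubiquitinated when ribosomes collide. Rps20 changed by -2.31 and -1.82, whereas Rps10 was higher in both genotypes.

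**Figure D3:**
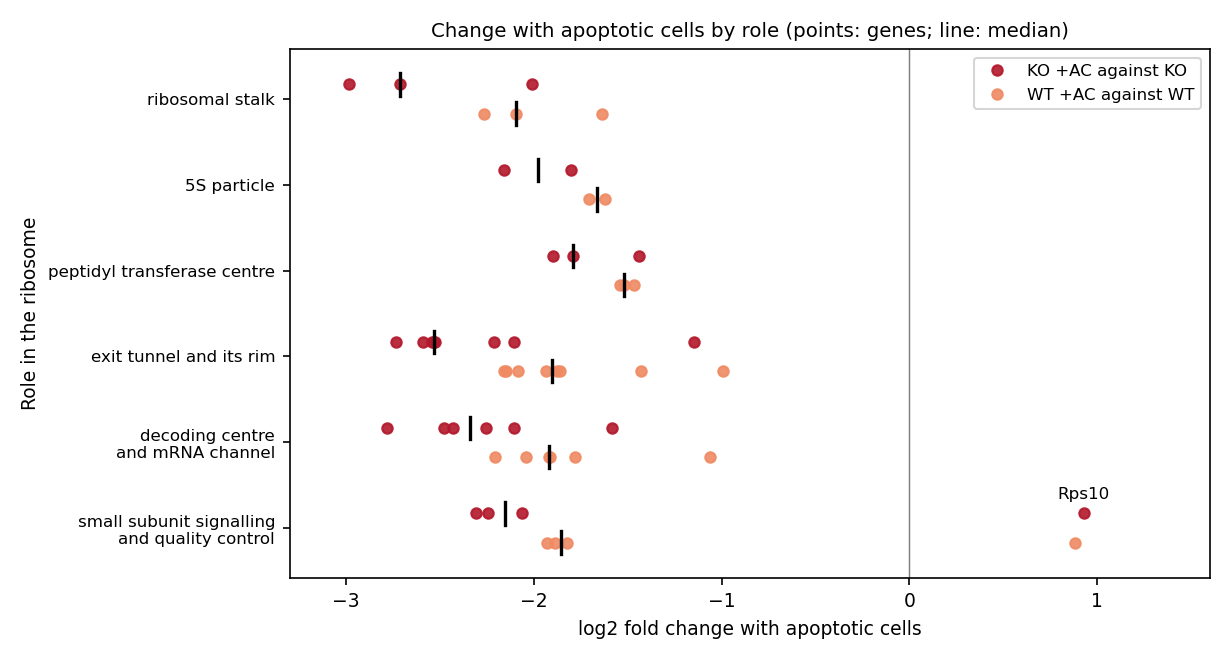
Log2 fold change with apoptotic cells by role in the ribosome, for KO + AC against KO and WT + AC against WT. Points are genes and lines are medians. All points but Rps10 lie below 0, from -2.99 for Rplp1 to -0.99 for Rpl4.

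Other large falls came from short proteins of the large subunit. Rpl36, Rpl41 and Rpl37 changed by -2.95, -2.89 and -2.80 in KO, and Rpl37, Rpl37a and Rpl36a by -2.28, -2.25 and -2.19 in WT. Rpl13a, which in human monocytes leaves the ribosome to silence inflammatory mRNAs, had the smallest fall in WT. It had 94, 92 and 89 counts in KO + AC against 185, 170 and 146 in KO, and 98, 84 and 95 in WT + AC against 146, 137 and 114 in WT libraries. Its changes were -1.19 (SE 0.14) and -0.80 (SE 0.15), at counts far below those of most genes. Of the 20 genes mutated in Diamond-Blackfan anaemia, an inherited failure of red cell production, 19 fell and 1, Rps10, rose in each genotype. Of all 81 tested ribosomal protein genes 75 fell and 6 rose, and 36.7% of all genes tested were called lower in each genotype. The medians of the 20 were -2.16 in KO and -1.82 in WT, near the -2.17 and -1.82 of all tested ribosomal protein genes. Rps19, the most often mutated, stood at -2.45 and -2.06.

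The 6 genes that rose were Rpl10l, Rpl39l, Rpl6l, Rpl32l, Rpl24 and Rps10, all with under 100 counts in each library without apoptotic cells. Rpl10l and Rpl39l are testis-enriched copies of Rpl10 and Rpl39, and Rpl6l and Rpl32l are annotated as processed pseudogenes. Rpl39l, at chr16:10170226-10174911 on the plus strand (GRCm38), had 902, 919 and 1058 counts in KO + AC against 8, 13 and 12 in KO libraries. In WT + AC it had 1179, 1196 and 949 counts against 12, 9 and 11 in WT libraries. The groups lay far apart, with log2 changes of 6.11 (SE 0.17, adjusted p 5.49e-22) in KO and 6.40 (SE 0.17, adjusted p 2.27e-22) in WT. Over the same libraries its parent Rpl39, at chrX:37082520-37085402 on the minus strand, had 1274, 1356 and 1443 counts in KO + AC against 7964, 7886 and 5648 in KO. In WT + AC Rpl39 had 1718, 1689 and 1429 counts against 5098, 6042 and 5703 in WT. Per kilobase and 1e6 counts, Rpl39l reached 69.2 ± 6.45 in KO + AC and 80.6 ± 10.7 in WT + AC, against 129 ± 8.49 and 154 ± 16.5 for Rpl39 in the same groups (SD, n = 3 each). The 2 coding sequences, from GENCODE, are shown because the paralogs moved in opposite directions. Capitals mark the 23 of 156 bases that differ between them.
Rpl39: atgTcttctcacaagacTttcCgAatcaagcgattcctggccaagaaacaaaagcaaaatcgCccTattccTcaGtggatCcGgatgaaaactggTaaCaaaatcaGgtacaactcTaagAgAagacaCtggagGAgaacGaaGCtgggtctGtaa
Rpl39l: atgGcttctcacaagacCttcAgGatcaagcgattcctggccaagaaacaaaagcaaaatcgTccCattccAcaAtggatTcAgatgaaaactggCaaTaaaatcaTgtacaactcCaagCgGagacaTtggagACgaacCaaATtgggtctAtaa
Identity was 85.3%, and 1.75% of the stretches of 100 bases in the Rpl39 transcript and none in Rpl39l occurred in another mouse gene.

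Rpl10l, at chr12:66283379-66284401 on the minus strand, had 104, 97 and 120 counts in KO + AC and 127, 108 and 107 in WT + AC libraries, against 0 in all 6 libraries without apoptotic cells. Taken against 3 counts per library, it was at least 38.3-fold higher in KO + AC and at least 40.8-fold higher in WT + AC. A gene with these counts could pass the filter only through the libraries with apoptotic cells. Its coding sequence matched 84.8% of that of Rpl10, with 98 of 645 bases different. Not all paralogs rose, since Rps27l, a p53 target that matched Rps27 at 76.1% of its coding bases, fell as Rps27 did, with Rps27l at -1.90 in KO and -1.61 in WT.

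Rpl6l had 231, 199 and 234 counts in KO + AC against 53, 64 and 47 in KO, and 248, 249 and 239 in WT + AC against 49, 47 and 60 in WT libraries, log2 changes of 1.69 and 1.95. Rpl32l had 104, 96 and 106 counts in KO + AC against 39, 42 and 23 in KO, and 90, 160 and 123 in WT + AC against 25, 22 and 18 in WT libraries, changes of 1.23 and 2.23. Both these pseudogenes turned to falls under a correction for length and GC content. The third pseudogene, Rps4l, fell instead, at -2.31 in KO and -1.36 in WT. Rps10 had 108, 84 and 91 counts in KO + AC against 27, 55 and 37 in KO, and 83, 104 and 78 in WT + AC against 41, 43 and 34 in WT libraries, changes of 0.93 and 0.88. Rpl24, whose protein bridges the subunits, had 16, 13 and 12 counts in KO + AC against 5, 2 and 3 in KO, and 13, 23 and 12 in WT + AC against 7, 7 and 4 in WT libraries. Its changes of 1.68 (SE 0.46) and 1.12 (SE 0.39) ranged from -0.09 to 2.12 in KO and from -0.72 to 1.52 in WT over the alternatives. It was not called in WT without WT 3 or without WT + AC 2, nor in either genotype under the length and GC correction. The T cell marker sums given above were higher in the same libraries, with Lck, Zap70, Cd3e, Cd3g and Cd7 higher and Lat and Cd28 lower. The part of these markers in the 6 rises was not tested.

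**Figure D4:**
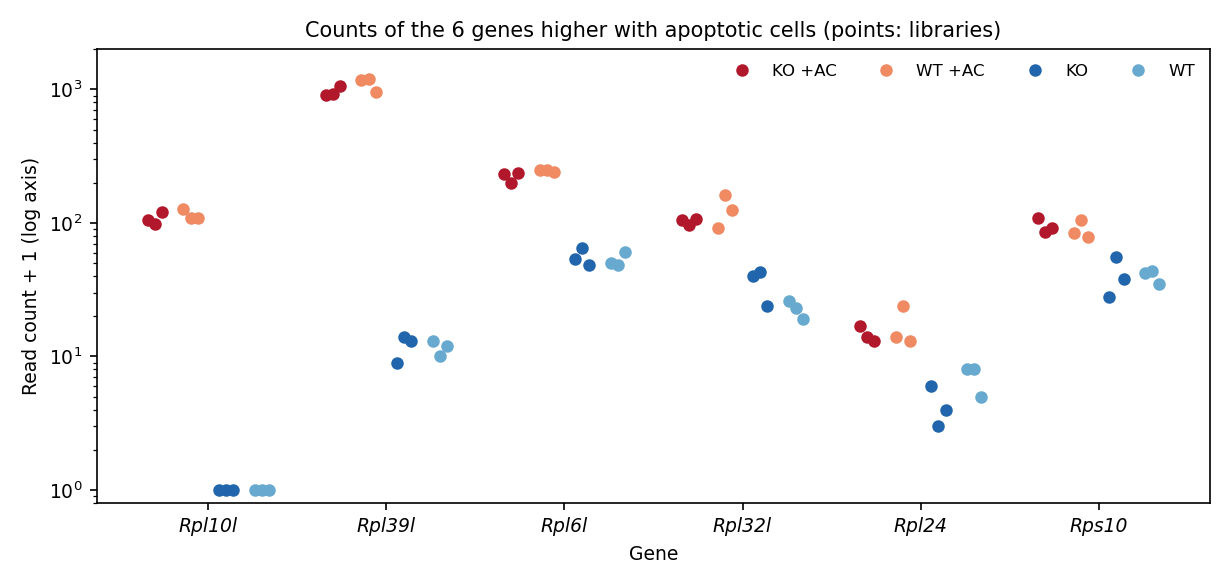
Read counts plus 1 (log axis) of the 6 genes higher with apoptotic cells in KO + AC, WT + AC, KO and WT libraries. Points are libraries. Rpl10l had no count in any library without apoptotic cells and 97 to 127 with them, and Rpl39l had 902 to 1196 against 8 to 13.

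The ribosomal protein pseudogenes ending in -ps, which the rule leaves out, took a higher share of counts with apoptotic cells. They took 0.198, 0.196 and 0.224% of counts in KO + AC and 0.215, 0.245 and 0.215% in WT + AC libraries. Without apoptotic cells they took 0.0507, 0.0549 and 0.0408% in KO and 0.0373, 0.0391 and 0.0388% in WT libraries. Of the 307 such rows in the table with apoptotic cells, 73 passed the filter in the libraries without them and 155 in the fit of 12 libraries, so many passed only where they were high, and no count by direction is given. Rps19-ps6 had 1673 to 2008 counts with and 37 to 84 counts without apoptotic cells.

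RefSeq gave a promoter for 60 of the genes, and the 30 bases around the start were searched for the pyrimidine run of a TOP tract. The longest run of C or T had a median of 6.5 bases in these genes, against 4 in all 27025 promoters, and 34 of the 60, or 56.7%, had a run of at least 6, against 28.9% of all. The windows below show genes with strong falls (Rplp2, Rpl37, Rps15), weak falls (Rpl4, Rps3) and rises (Rpl39l, Rpl24), with Rpl7a as the longest run. Each runs 15 bases to either side of the RefSeq start in GRCm38.p6, 5′ to 3′ on the gene's strand, and capitals mark its longest run of C or T. They are Rpl7a at chr2:26910792-26910821 on the plus strand, Rplp2 at chr7:141447636-141447665 on the plus strand, Rpl37 at chr15:5116598-5116627 on the plus strand, Rps15 at chr10:80292416-80292445 on the plus strand, Rpl4 at chr9:64173372-64173401 on the plus strand, Rps3 at chr7:99483695-99483724 on the minus strand, Rpl39l at chr16:10170213-10170242 on the plus strand and Rpl24 at chr16:55966260-55966289 on the plus strand.
Rpl7a: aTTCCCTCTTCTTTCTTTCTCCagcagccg
Rplp2: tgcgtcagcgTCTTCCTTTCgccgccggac
Rpl37: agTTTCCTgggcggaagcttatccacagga
Rps15: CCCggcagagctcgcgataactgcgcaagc
Rpl4: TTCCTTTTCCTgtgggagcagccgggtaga
Rps3: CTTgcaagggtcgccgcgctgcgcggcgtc
Rpl39l: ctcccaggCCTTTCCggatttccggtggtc
Rpl24: agaaagCTgttgctaggaaacagactgggc
Rpl4 and Rplp2 have runs of 11 and 10 bases and fell by unequal amounts, and Rps15 and Rps3 both have runs of 3. The RefSeq start lay 281 bases from the start of the GENCODE principal transcript in Rplp2, 43 in Rpl7a and 32 in Rpl37. The distance was 29 in Rps3, 22 in Rps15, 12 in Rpl4 and 0 in Rpl39l and Rpl24, and it reached 2614 in Rpl18. Beyond 15 bases the GENCODE start lies outside the window, so a run there need not describe the TOP tract. In the 300 bases from 250 before to 50 after the start, on both strands, CCGGAAG stood in 38.3% of the genes' promoters against 9.21% of all promoters. CTTTC, part of which can lie in a TOP tract, stood in 80.0% against 57.1%, and TATAAA in 10.0% against 14.2%.

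Without apoptotic cells, KO against WT asks what the genotype does in resting macrophages. In libraries labelled KO, 23 of 79 tested ribosomal protein genes were higher and 0 lower, against 7.94% of all genes higher and 8.24% lower. All 79 log2 fold changes were above 0, with a median of 0.36 against 0.02 over all genes. Groups did not overlap for 29 of 79 genes, against 33.6% of all genes. At an unadjusted p under 0.05, 54 were higher and 0 lower, and DESeq2 called 26 higher and 0 lower. Shares of calls over all genes were taken for the main test only, so these counts have none beside them. The largest rise was that of Rpl36, a small protein of the large subunit. It had 8448, 12111 and 5781 counts in KO against 5435, 5309 and 5271 in WT libraries, a log2 change of 0.83 (SE 0.23, adjusted p 0.0302). KO 1 and KO 2 stood well above WT for Rpl36, and KO 3 just above.

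The next largest rises were those of Rps14, the gene haploinsufficient in human 5q- syndrome, at 0.70, Rpl41 at 0.69, Rpl18 at 0.68 and Rplp1 at 0.67. Rpl41 had 32459, 40470 and 23579 counts in KO against 22016, 22239 and 20497 in WT libraries (SE 0.17, adjusted p 0.0119). Rplp1, with the counts given above, had a change with an SE of 0.17 and an adjusted p of 0.0129. In both genes KO 3 lay close to the WT libraries. In the stalk 2 of 3 genes were called higher, against 7.94% of all genes, and Rplp0 was not, at 0.39 and an adjusted p of 0.0518. In the decoding centre and mRNA channel 3 of 6 were called higher, Rps2 at 0.54, Rps3 at 0.49 and Rps15 at 0.57. None of the 3 genes of the peptidyl transferase centre passed the test, and Rpl10 and Rps4x had changes of 0.07 and 0.04. All 20 Diamond-Blackfan genes had changes above 0, as did all 79 tested ribosomal protein genes. Of the 20, 3 were called higher, Rpl11, Rpl18 and Rpl35a, against 23 of the 79.

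The higher levels stood in 2 of the 3 KO libraries. Against the WT mean the median gene deviated by 0.54 in KO 1 and 0.48 in KO 2 on the log2 scale, but by 0.02 in KO 3, while the WT libraries lay between -0.04 and 0.03. Without KO 1 and KO 2, 0 genes were called and the median was 0.02. Leaving out KO 1 or WT 3 gave 0 calls, leaving out KO 2 gave 1, WT 1 gave 3 and WT 2 gave 12, and leaving out KO 3 gave 65. Short genes moved the same way, since the shortest eighth of all genes had a median of 0.28, against 0.37 for the 31 ribosomal genes in it. In the next shortest eighth the medians were 0.18 over all genes and 0.37 for its 26 ribosomal genes. In the eighth after it they were 0.14 and 0.28, the latter for 12. With a correction for length and GC content 6 genes were called, with a median of 0.23 against 0.11 over all genes. The summed T cell markers were also higher in KO than in WT libraries, through Lat at 37.8 to 45.2 against 25.1 to 33.5 CPM. The fibroblast and stromal sum was higher too, at 753 to 1086 CPM in KO against 546 to 694 CPM in WT libraries. Of its 8 genes Acta2, Col3a1 and Lum did not overlap between the groups and the other 5 did, with Acta2 at 132 to 198 CPM in KO against 52.6 to 64.2 CPM in WT. The stromal sum was highest in KO 3, where ribosomal genes were near WT, and the part of these markers was not tested.

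**Figure D5:**
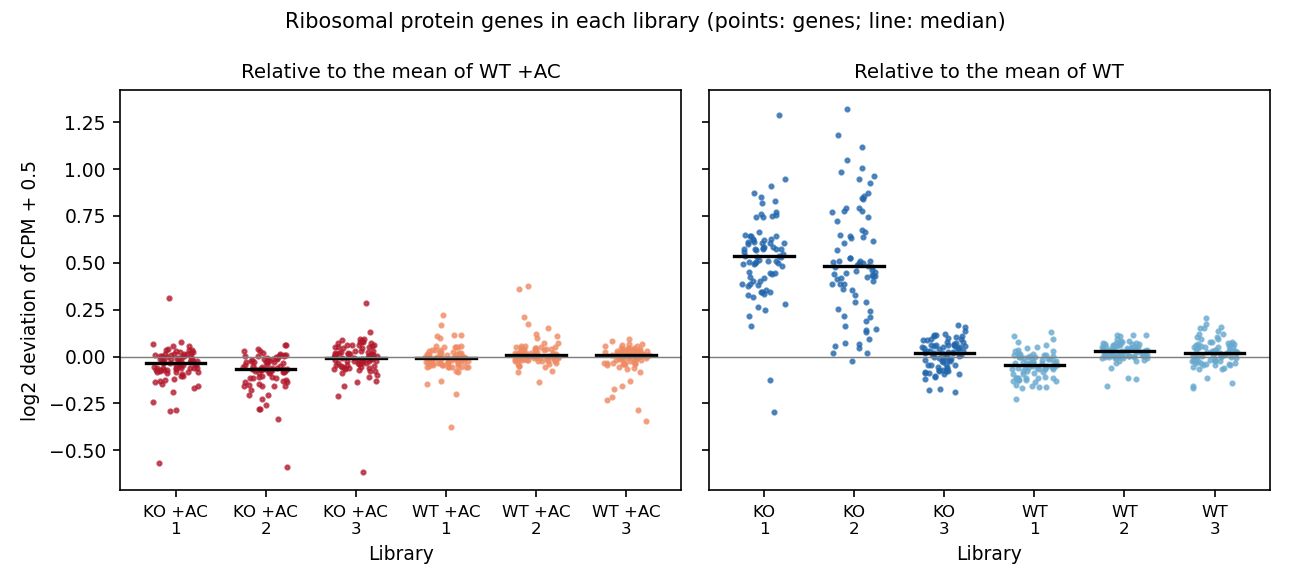
Log2 deviation of each ribosomal protein gene (CPM + 0.5) from the mean of the WT + AC libraries (left) or the WT libraries (right), by library. Points are genes and lines are medians. The medians of KO 1 and KO 2 are 0.54 and 0.48, and those of the other 10 libraries lie between -0.07 and 0.03.

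With apoptotic cells few ribosomal protein genes were called between the genotypes. In libraries labelled KO + AC, 0 of 81 tested genes were higher and 4 lower than in WT + AC, against 6.58% of all genes higher and 4.75% lower. The median log2 fold change was -0.03, against -0.02 over all genes. Groups did not overlap for 14 of 81 genes, against 26.4% of all genes. At an unadjusted p under 0.05, 1 gene was higher and 13 lower, and DESeq2 called 0 higher and 2 lower, without a share over all genes for either. The largest fall was that of the pseudogene Rps4l, at chr6:148354656-148355598, with 78, 77 and 76 counts in KO + AC against 110, 129 and 131 in WT + AC libraries. Every KO + AC library lay below every WT + AC library, and the change was -0.64 (SE 0.13, adjusted p 0.000245). This call held in all 14 alternatives, between -0.71 and -0.54.

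The other falls were small. Rpl32 had 4494, 4395 and 4714 counts in KO + AC against 4931, 5226 and 4916 in WT + AC libraries, a change of -0.11 (SE 0.03, adjusted p 0.0235). Rpl27 had 2735, 2648 and 2721 counts in KO + AC against 3000, 3028 and 2923 in WT + AC libraries, also a change of -0.11 (SE 0.04, adjusted p 0.0386). Rpl19 had 1837, 1746 and 1966 counts in KO + AC against 2111, 2097 and 1992 in WT + AC libraries, a change of -0.13 (SE 0.04, adjusted p 0.0354). After scaling, the groups did not overlap for Rpl32 and Rpl27 but did for Rpl19. The calls of Rpl32, Rpl27 and Rpl19 held in 5, 3 and 4 of the 14 alternatives. Leaving out KO + AC 1, KO + AC 2 or WT + AC 2 gave 1 call, leaving out WT + AC 1 gave 2, and leaving out WT + AC 3 gave 7. Rpl39 and Rpl39l had changes of -0.21 and -0.17, with adjusted p of 0.0558 and 0.398. Scaling by library totals gave 22 lower genes, and the correction for length and GC content gave 7 higher and 1 lower, again without shares over all genes. Macrophage marker sums were 16234 to 16550 CPM in KO + AC against 14295 to 14869 CPM in WT + AC, and stromal sums were 295 to 320 against 445 to 491 CPM. The part of these markers was not tested.

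The interaction asks whether the genotype effect differed with apoptotic cells. It was lower than 0 for 20 of 81 tested genes and higher for 0, against 5.13% of all genes lower and 7.55% higher. The median was -0.38, against -0.03 over all genes. Rps4l had the lowest adjusted p, with an interaction of -0.95 (SE 0.19, adjusted p 0.00217), and its call held in all 20 alternatives. At an unadjusted p under 0.05, 50 were lower and 0 higher, and DESeq2 called 26 lower and 0 higher, without a share over all genes for either. Among the coding genes called, Rpl41, Rplp1, Rpl19 and Rpl39 had the largest interactions, at -0.75, -0.72, -0.66 and -0.65. Rpl10 and Rps4x had interactions of 0.03 and 0.01. The stromal sum moved with this contrast, higher in KO than in WT but lower in KO + AC than in WT + AC, and its part was not tested. Without KO 1 and KO 2, 1 gene was called and the median was -0.05. Leaving out KO 3 gave 65 calls and leaving out any other single library gave 3 to 10, and the correction for length and GC content gave 2.

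Genes of the wider translation machinery were read beside these. Of the 9 ribosomal protein genes outside the symbol rule, 8 were called lower with apoptotic cells in each genotype, against 36.7% of all genes. Rpsa had 11232, 11184 and 11448 counts in KO + AC against 41760, 46692 and 35748 in KO, and 11642, 12015 and 12019 in WT + AC against 35142, 33553 and 31891 in WT libraries. It changed by -2.20 and -1.78, and Fau, which encodes a small subunit protein as a ubiquitin-like fusion, by -2.67 and -2.13. Without apoptotic cells Fau was higher in KO than in WT, at 0.56 (SE 0.16, adjusted p 0.0203). The ribosome of mitochondria is a separate machine, and its genes also fell with apoptotic cells, with medians of -1.67 in KO and -1.49 in WT. Of 77 tested, 75 were called lower in KO and 74 in WT, against 36.7% of all genes in each. In KO against WT, 18 of these 77 were higher, against 7.94% of all genes. Their share of counts was 0.358 and 0.385% in KO 1 and KO 2 and 0.315% in KO 3, against 0.305 to 0.319% in WT libraries.

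For the lists that follow, the shares over all genes were 49.6% higher and 36.7% lower in KO and 48.3% and 36.7% in WT. Other mRNAs with a TOP tract changed less, with medians of -0.81 in KO and -0.85 in WT. Of 16, 13 were lower and 2 higher in KO, and 12 were lower and 2 higher in WT. Tpt1, a small cytosolic protein of growing cells, had 24114, 23830 and 23873 counts in KO + AC against 88957, 83898 and 70705 in KO, and 24797, 25332 and 24970 in WT + AC against 69673, 69719 and 68728 in WT libraries. Its changes were -2.09 and -1.75, while Eef1b2, a subunit of the elongation factor 1 complex, changed by -1.88 and -1.58. Of 25 ribosome assembly genes, 11 were higher and 7 lower in KO, and 13 were higher and 6 lower in WT, counts near or below the shares over all genes. Rrs1, an assembly factor of the large subunit, changed by 1.33 and 1.28, and Nip7, another, by -1.23 and -1.08. Of 11 RNA polymerase I genes, 4 were higher and 4 lower in KO, and 5 were higher and 4 lower in WT, again near or below those shares, with Polr1d at -1.57 and -1.35.

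Along the mTORC1 axis to TOP mRNAs, 10 of 16 genes were higher and 5 lower with apoptotic cells in each genotype, counts that lie near the shares over all genes. Larp1, which binds the TOP tract, had 4815, 5050 and 4744 counts in KO + AC against 598, 767 and 921 in KO libraries. In WT + AC it had 4771, 4761 and 5028 counts against 929, 838 and 799 in WT libraries. Its rises were 2.36 (SE 0.10, adjusted p 3.54e-18) in KO and 2.22 (SE 0.10, adjusted p 1.42e-17) in WT. They went opposite to Eif4ebp1, the translation repressor that mTORC1 inactivates, at -2.48 and -1.92.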

How the data were processed

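PolyA RNA of 12 libraries, 3 in each of 4 groups, was sequenced from mouse macrophages. The authors deposited raw read counts per gene symbol in 2 tables, 1 without and 1 with apoptotic cells. The submitters' processing notes name fastp, HISAT2 2.0.5, DESeq2 1.20.0 and the build mm10. No source used here gives the counter, its annotation, strand setting or filters, so overlapping and near-identical genes can exchange reads. Every sample column was used, and no row without a gene name was tested.

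Differences were tested with edgeR 4.0.16 (robust quasi-likelihood test, filterByExpr by group, TMM scaling) in R 4.3.3, with Benjamini-Hochberg adjusted p under 0.05 over all genes tested. Genotypes were compared within a table in its 6 libraries, and the effect of apoptotic cells and the interaction in 1 fit of the 12 libraries over the 54582 symbols in both tables. That fit pooled the spread of the 4 groups. Its common coefficient of variation was 0.084, against 0.117 in the libraries without and 0.029 in those with apoptotic cells. SEs and p-values of that fit can therefore understate the spread among KO libraries. Changes are log2 fold changes after TMM scaling, and no value is a level across tables. Levels per kilobase used principal transcript lengths from GENCODE release M21 (GRCm38), and windows of 100 bases were matched across its transcripts. Total counts of 17000976 to 18770757 set the precision, and a count of 0 was taken as at most 3 counts per library. The scripts were tested on simulated counts.

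The members and lists were chosen with earlier results of these data known. Named genes were Kif13b, up to 5 called genes with the largest rise and fall per comparison at a mean of at least 2 CPM, the genes of the role lists, the 3 highest and the low-count genes, and up to 4 genes with the smallest p of each other list. Rps19-ps6 was chosen after its values were seen. Alternatives were library totals, DESeq2 1.42.0, edgeR with DESeq2 size factors, TMM without the ribosomal rows, no filter, a replicate block, a length and GC correction, other sets of libraries in the fit, each library left out, and KO 1 and KO 2 left out together. Neutrophil, B cell and erythroid markers were also summed, to 12.5 to 20.0, 2.44 to 5.21 and 0.108 to 1.16 CPM over all libraries.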

Additional observations from a re-analysis of the deposited data

Results flagged for a closer look

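The genotype effect with apoptotic cells was lower than the effect without them in 20 ribosomal protein genes, by the interaction test (edgeR, Benjamini-Hochberg adjusted p under 0.05). In the stalk these were Rplp1 at -0.72 and Rplp0 at -0.38 on the log2 scale, and in the 5S particle Rpl11 at -0.54. At the exit tunnel and its rim they were Rpl19 at -0.66, Rpl39 at -0.65 and Rpl31 at -0.43, and in the decoding centre and mRNA channel Rps15 at -0.57, Rps2 at -0.55 and Rps3 at -0.52. Other large subunit genes were Rpl41 at -0.75, Rpl32 at -0.55, Rpl27 at -0.49, Rpl12 at -0.46, Rpl14 at -0.43, Rpl10a at -0.43 and Rpl13 at -0.40. Other small subunit genes were Rps18 at -0.63 and Rps20 at -0.49. The pseudogenes were Rpl32l at -0.999 and Rps4l at -0.95. Without KO 1 and KO 2, 1 of the 20 remained called, Rps4l.

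The pseudogene rows ending in -ps are outside the symbol rule and took a mean of 0.206% of counts in KO + AC and 0.225% in WT + AC libraries, against 0.0488% in KO and 0.0384% in WT libraries.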

How the results depend on the processing

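With apoptotic cells 80 to 82 genes were called under the alternatives run, but the length and GC correction gave 3 higher and 77 lower in each genotype, against 6 and 75. Without WT 3 or WT + AC 2, 5 were higher in WT, and with no filter 76 were lower in KO. The median in KO was -1.72 with library totals and -1.89 without KO 1 and KO 2, and -2.33 to -2.13 with each library left out. In WT it was -1.71 with DESeq2 and with its size factors, -1.41 with totals, -2.00 with the length and GC correction and -1.86 to -1.81 with each library left out. Under that correction Rpl32l turned to -2.99 in KO and -2.33 in WT, Rpl6l to -0.65 and -0.52, and Rpl24 to -0.095 and -0.72. For KO against WT, 6 genes were called with the correction, 56 in the fit of 12 libraries and 0 without KO 1 and KO 2, where the median was 0.019. Leaving out each library gave 0 to 65 calls and medians of 0.27 to 0.48. For KO + AC against WT + AC, DESeq2, its size factors and the replicate block each gave 2 calls, totals 22 with a median of -0.082, and the fit of 12 libraries 1 with a median of -0.011. The correction gave 8 calls, with a median of 0.045 against 0.052 over all genes, and leaving out each library gave 1 to 7 calls and medians of -0.043 to -0.016. The interaction was called in 39 genes with no filter, 2 with the correction and 1 without KO 1 and KO 2, with a median of -0.052, and in 3 to 65 genes with each library left out, with medians of -0.53 to -0.31. The cause of these shifts was not tested, and shares of calls over all genes were taken for the main test only. Among values of single genes, 3452 kept direction and side of the threshold, 322 lost the call, 103 gained it and 6 called values reversed. A further 156, called in neither fit, changed sign, among them the 3 stalk genes in KO + AC against WT + AC.

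Deviations of same-numbered libraries had correlations of -0.20 to 0.11, against -0.25 to 0.24 for differently numbered ones. With 3 libraries per group this cannot exclude a shared origin, and the numbers were used only to name libraries. The block gave 24 calls for KO against WT and 22 for the interaction. Low counts limit Rpl3l, Rpl24 and Rps10.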
